A study of Mus musculus with 24 samples.

Results

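The 10 genes described here encode proteins of the extracellular matrix around brain cells. They are the lecticans Acan, Bcan, Ncan and Vcan, the link proteins Hapln1, Hapln2 and Hapln4, the tenascins Tnr and Tnc, and reelin, Reln. They were chosen by name, with the differences between bulbectomy and sham libraries and between sham tissues already known, and all 10 were found among the 55487 gene identifiers of the count files. The values in those 2 kinds of contrast are therefore given as a description, without a test. Tests are given for the tissue differences among the bulbectomy libraries, a contrast the choice did not name although the same libraries were set against sham. They are also given for other genes of the same pathways, in lists drawn up with earlier results of these data known.

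The study set mice that had lost their olfactory bulbs by surgery (olfactory bulbectomy) against sham-operated mice, all wild-type. The 24 libraries were bulbectomy and sham hippocampus (4 and 5 libraries), bulbectomy and sham cortex (3 and 5) and bulbectomy and sham cerebellum (2 and 5). Each was polyA RNA of dissected tissue in a directional library with single-end reads, from RNA whose integrity number was 8 or more, and the labels give no strain, age or sex. The labels also do not say whether libraries came from separate animals, or whether tissues with the same number came from 1 brain, so p-values measure the spread between these libraries.

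Perineuronal nets are lattices of matrix that enclose the cell body and proximal dendrites of certain neurons, above all fast-spiking parvalbumin interneurons. Hyaluronan forms the backbone, lecticans bind to it through their N-terminal domain, link proteins lock that bond, and tenascin-R ties the lecticans together at their C-terminal ends. Reelin is a secreted matrix glycoprotein that binds the lipoprotein receptors Vldlr and Lrp8. It is made by Cajal-Retzius cells during development, by GABAergic interneurons in the adult forebrain and by granule cells in the cerebellum.

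Of the members, 6 lie as 3 neighbouring pairs of a lectican and a link protein in GENCODE M21 on GRCm38 (mm10). On chromosome 3, Bcan (87987531 to 88000230, minus strand) and Hapln2 (88021750 to 88027583, minus strand) are 21519 bases apart. On chromosome 8, Hapln4 (70083457 to 70090862, plus strand) and Ncan (70093085 to 70120873, minus strand) are 2222 bases apart. On chromosome 13, Hapln1 (89539796 to 89611652, plus strand) and Vcan (89655312 to 89742509, minus strand) are 43659 bases apart. No annotated gene lies between the partners of any of these pairs. Acan lies on chromosome 7 (79053483 to 79115099, plus strand), Tnr on chromosome 1 (159523769 to 159931729, plus strand), Tnc on chromosome 4 (63959785 to 64047015, minus strand) and Reln on chromosome 5 (21884454 to 22344702, minus strand). Acan also neighbours a link protein gene, Hapln3, which is not a member and lies 2 bases away on the opposite strand. Genes on the opposite strand overlap 3.44% of the exon bases of Tnr, 2.27% of those of Tnc and 1.04% of those of Reln, and the strand setting of the counting is not given in the sources used here.

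The promoters of 5 members are printed because Reln, Acan and Tnr stood apart between operations in 1 tissue each, and because Bcan and Hapln2 are neighbours on 1 strand with different tissue patterns. Each is the stretch of 250 bases before the RefSeq start in GRCm38.p6, written 5′ to 3′ on the gene's own strand, with every CG dinucleotide in capitals. The Reln promoter is chr5:22344706-22344955 (minus strand), that of Acan chr7:79052976-79053225 (plus), that of Tnr chr1:159523519-159523768 (plus), that of Bcan chr3:88000357-88000606 (minus) and that of Hapln2 chr3:88027512-88027761 (minus).
Reln: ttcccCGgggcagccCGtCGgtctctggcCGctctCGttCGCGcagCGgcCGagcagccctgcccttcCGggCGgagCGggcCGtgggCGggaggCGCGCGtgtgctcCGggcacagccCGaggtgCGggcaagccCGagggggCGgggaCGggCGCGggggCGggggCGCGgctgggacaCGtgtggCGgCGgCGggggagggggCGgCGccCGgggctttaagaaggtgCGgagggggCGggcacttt
Acan: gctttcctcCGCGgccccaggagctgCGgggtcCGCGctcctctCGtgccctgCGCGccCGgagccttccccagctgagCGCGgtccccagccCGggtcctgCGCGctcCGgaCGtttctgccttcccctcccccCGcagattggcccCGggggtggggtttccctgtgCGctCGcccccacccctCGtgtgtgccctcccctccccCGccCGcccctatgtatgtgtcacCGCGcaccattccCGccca
Tnr: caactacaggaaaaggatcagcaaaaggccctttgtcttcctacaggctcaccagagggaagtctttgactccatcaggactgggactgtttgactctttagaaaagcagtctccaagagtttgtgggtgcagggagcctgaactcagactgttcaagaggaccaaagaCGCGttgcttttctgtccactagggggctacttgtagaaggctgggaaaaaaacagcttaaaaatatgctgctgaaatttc
Bcan: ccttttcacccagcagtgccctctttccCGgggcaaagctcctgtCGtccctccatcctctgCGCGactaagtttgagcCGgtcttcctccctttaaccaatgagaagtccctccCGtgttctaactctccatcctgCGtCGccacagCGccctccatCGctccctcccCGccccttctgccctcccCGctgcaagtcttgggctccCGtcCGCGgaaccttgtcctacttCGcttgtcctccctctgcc
Hapln2: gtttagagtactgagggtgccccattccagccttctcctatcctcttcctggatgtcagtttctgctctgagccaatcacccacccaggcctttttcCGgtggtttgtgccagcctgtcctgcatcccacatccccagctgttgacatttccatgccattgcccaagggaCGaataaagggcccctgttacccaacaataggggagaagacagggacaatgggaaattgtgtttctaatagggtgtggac
The Reln stretch holds 37 CG dinucleotides and the Acan stretch 26, more than 97.8% and 90.4% of the 32851 mouse promoters of this length in the RefSeq table, whose median was 6. Bcan has 16, its neighbour Hapln2 has 2 and Tnr has 2. The letters GGGCGG, the core of a GC box, occur on either strand in the promoters of Acan, Bcan, Ncan, Reln, Tnc and Vcan, and in 32.7% of all promoters of the table. TATAAA, searched on both strands as well, occurs in those of Ncan and Tnc, and in 12.4% of all.

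Assigned reads per library ranged from 3255661 (hippocampus sham 1) to 138963332 (hippocampus sham 4). The other hippocampal libraries had 8145624 to 9608811, cortex 10073878 to 17052728 and cerebellum 10400540 to 20230673. Levels are CPM, the reads of a gene scaled to a fixed library total, with TMM scaling over all 24 libraries. A count of 3 reads, the limit that a count of 0 allows, was worth 0.0216 to 0.921 CPM, for counting error only. Hippocampus sham 1 and sham 2 stood apart in markers of striatal neurons: the dopamine receptor Drd1 had 44.3 and 41.8 CPM there, against 3.89 to 5.63 CPM in the bulbectomy and 2.89 to 3.47 CPM in the other sham hippocampal libraries. The 15 thalamus and habenula markers summed to 393 to 648 CPM in bulbectomy hippocampus and 108 to 445 CPM in sham hippocampus, with 4 of 14 tested called higher after bulbectomy. Their mean log2(CPM + 1) did not overlap, at 3.71 to 4.37 after bulbectomy and 2.11 to 3.28 after sham operation. The part of this shift in the hippocampal differences below was not tested. Cerebellum sham 1 stood apart as well, with 162 CPM of the Purkinje cell marker Pcp2 against 347 to 751 CPM in the other sham cerebella. The hippocampal and cerebellar differences of the members that these libraries move are given with and without them.

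**Figure D1:**
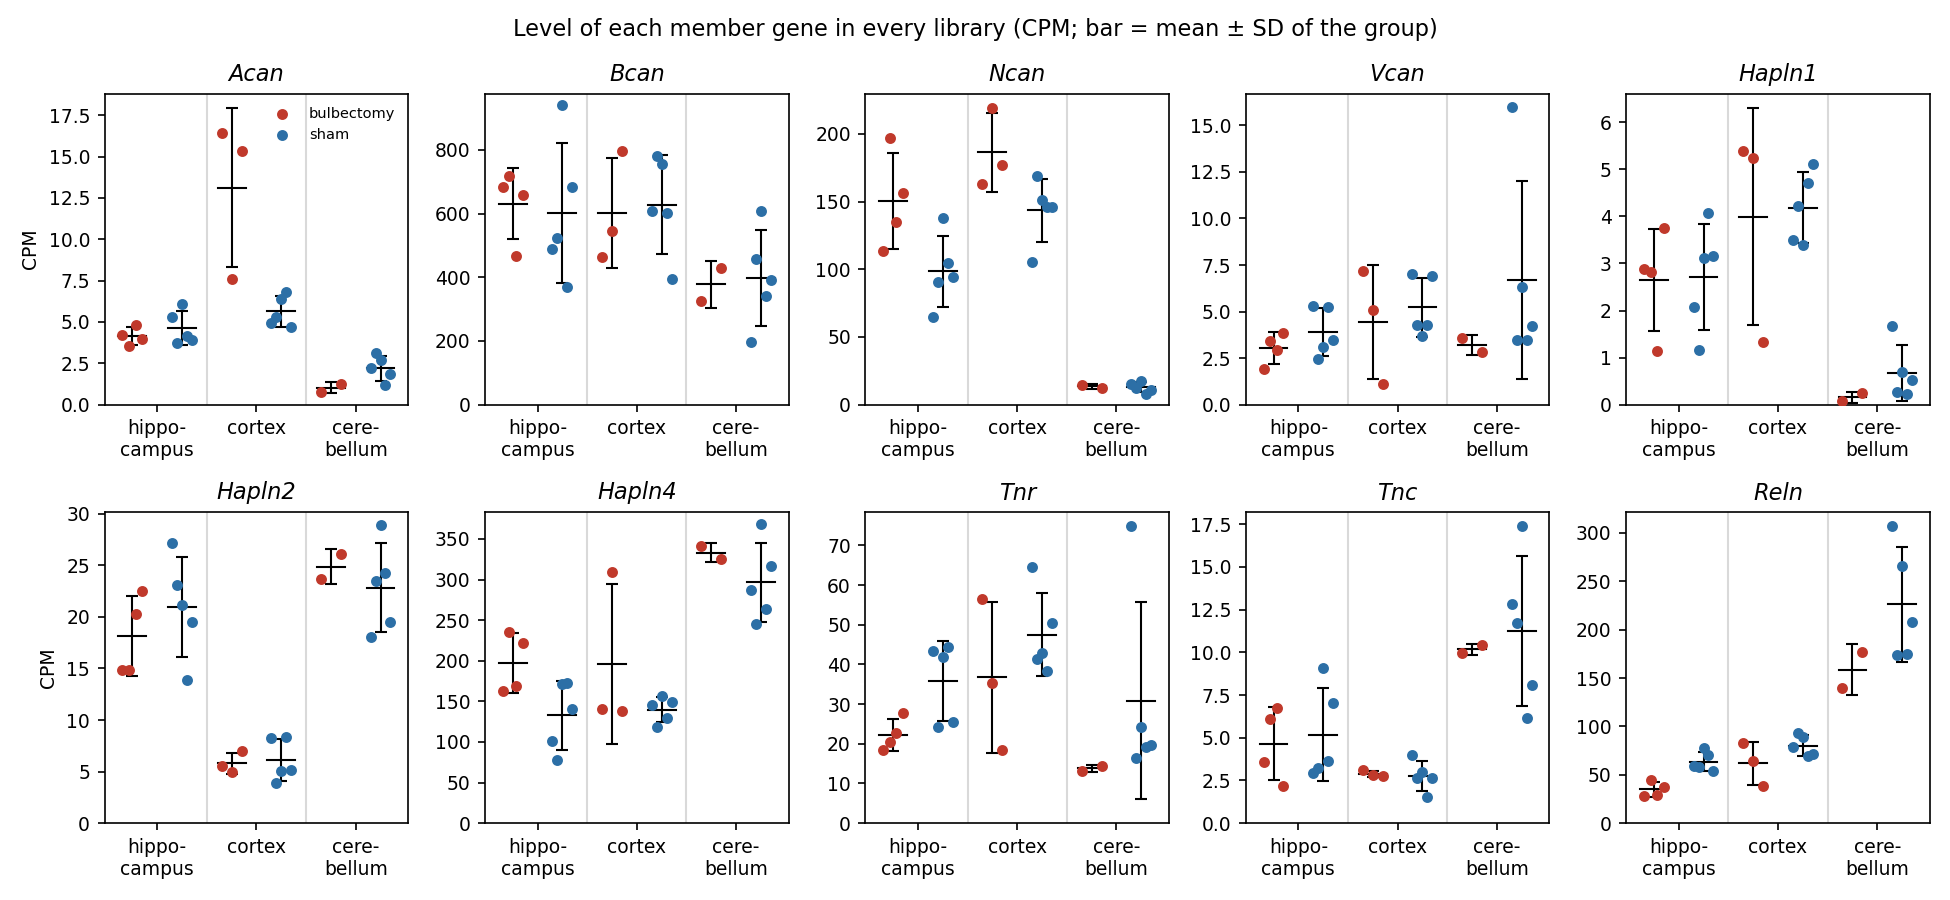
Level of each of the 10 genes in every library, in CPM (1 panel per gene with its own linear axis), by tissue, bulbectomy in red to the left of sham in blue, with bars for mean ± SD. Reln in hippocampus and Acan in cortex show no overlap between operations, and Ncan is low in all 7 cerebellar libraries.

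Reln differed most plainly in hippocampus, where it was lower after bulbectomy. It had 28.3, 44.7, 29.1 and 37.5 CPM in bulbectomy hippocampus, against 58.7, 58.1, 77.6, 70.0 and 53.9 CPM in sham hippocampus. The groups did not overlap: the highest bulbectomy library lay below the lowest sham library. The means were 34.9 ± 7.75 CPM (SD, n = 4) and 63.7 ± 9.82 CPM (SD, n = 5), a log2 difference of -0.84 ± 0.18 (SE of the fit). In bulk tissue, fewer cells of a type and less RNA per cell cannot be told apart. Of the 10 members, Reln alone was called in hippocampus (edgeR quasi-likelihood test, called at an adjusted p under 0.05), where 1.55% of 13985 genes were called. Because the members were picked with this contrast in view, nothing is read from that count.

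The call of Reln was lost when any 1 of the 4 bulbectomy libraries, sham 3 or sham 4 was left out, while the difference stayed between -0.98 and -0.75. Without both sham libraries high in striatal markers it was -0.90, and the call was kept.

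In cortex and cerebellum the Reln groups overlapped. Reln had 83.2, 63.9 and 38.5 CPM in bulbectomy cortex, against 78.8, 92.9, 88.8, 69.6 and 71.3 CPM in sham cortex. Bulbectomy 1 lay within the sham range and the other 2 below it, and the log2 difference was -0.38 ± 0.23. Without bulbectomy 4 it was -0.14. In cerebellum it had 140 and 177 CPM after bulbectomy, against 308, 173, 266, 175 and 208 CPM after sham operation. The log2 difference was -0.54 ± 0.30, and -0.36 without cerebellum sham 1.

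Markers of Cajal-Retzius cells and of interneurons were followed next. The 7 Cajal-Retzius markers summed to 276 to 333 CPM in bulbectomy hippocampus and 228 to 271 CPM in sham hippocampus, and 0 of the 4 tested were called by edgeR. The defining marker Trp73 had 6.34, 4.78, 4.06 and 7.63 CPM after bulbectomy, against 5.90, 1.62, 9.92, 5.89 and 6.19 CPM after sham operation. Lhx1 stayed at or under 0.667 CPM and Lhx5 at or under 1.48 CPM in hippocampus, and Lhx1 was at 0 in sham 2. The sums did not overlap, but the mean of log2(CPM + 1) over the 7 genes did, at 2.89 to 3.28 after bulbectomy and 2.45 to 3.20 after sham operation.

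The parvalbumin interneuron list, 11 genes, summed to 531 to 692 CPM in bulbectomy hippocampus and 524 to 795 CPM in sham hippocampus, and 0 of 11 were called. The list mean on the log2 scale ran lower after bulbectomy, with overlap, at 4.51 to 5.04 against 4.83 to 5.37 after sham operation. The defining marker Pvalb had 256, 219, 177 and 179 CPM after bulbectomy, against 88.5, 146, 162, 67.3 and 121 CPM after sham operation. Pvalb was thus higher after bulbectomy, without overlap, and 9.48% of all genes tested in hippocampus did not overlap. The 11 genes are not confined to parvalbumin cells, since Gad1, Gad2 and the somatostatin gene Sst are among them. Sst, a marker of another class of interneurons, had 113, 192, 124 and 147 CPM against 56.1, 178, 128, 102 and 116 CPM. Neither the list nor Pvalb is taken here as a measure of the cells that make reelin. The part of these cell types in the Reln difference was not tested.

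Tnr, tenascin-R, also lay lower in bulbectomy hippocampus. It had 18.5, 20.3, 22.7 and 27.7 CPM in bulbectomy hippocampus, against 43.4, 24.2, 41.9, 44.5 and 25.4 CPM in sham hippocampus. Sham 2 and sham 5 lay near the bulbectomy values and the other 3 well above them, so the groups overlapped. The log2 difference was -0.65 ± 0.22, and -0.70 without sham 1 and sham 2. The thalamus and habenula markers were higher in bulbectomy hippocampus and apart between these same groups in mean log2(CPM + 1). Their part in the differences of Reln, Tnr, Ncan, Hapln4, Pvalb and the pathway genes called in hippocampus was not tested. In cortex Tnr had 56.4, 35.3 and 18.5 CPM after bulbectomy, against 64.4, 41.3, 42.8, 38.3 and 50.3 CPM after sham operation (-0.37 ± 0.31). Bulbectomy 4 was the lowest of the 8 cortical libraries, and without it the difference was -0.06.

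In cerebellum Tnr had 13.3 and 14.5 CPM after bulbectomy, against 74.96, 16.3, 24.2, 19.1 and 19.6 CPM after sham operation. The groups did not overlap, and sham 1 lay far above the rest. The log2 difference of -1.22 ± 0.70 was -0.50 without that library. Of the members, Reln in hippocampus, Acan in cortex and Tnr in cerebellum were those whose groups did not overlap. Over all genes tested, 9.48% in hippocampus, 3.59% in cortex and 10.9% in cerebellum did not overlap, and nothing is read from the members' counts.

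Tnc, tenascin-C, is known from developing and injured tissue and from astrocytes such as Bergmann glia. It had 3.56, 6.12, 6.72 and 2.18 CPM in bulbectomy hippocampus, against 2.95, 3.24, 9.09, 3.63 and 7.03 CPM in sham hippocampus. The bulbectomy libraries lay on both sides of the sham median, and the log2 difference was -0.13 ± 0.41. The differences were 0.06 ± 0.33 in cortex and -0.16 ± 0.41 in cerebellum.

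Acan encodes aggrecan, the lectican most closely tied to perineuronal nets. It had 16.4, 7.59 and 15.3 CPM in bulbectomy cortex, against 4.94, 5.32, 6.42, 6.81 and 4.70 CPM in sham cortex. Each bulbectomy library lay above each sham library, and bulbectomy 2 was the nearest to them. The means were 13.1 ± 4.83 CPM (SD, n = 3) and 5.64 ± 0.928 CPM (SD, n = 5), a log2 difference of 1.21 ± 0.27. Leaving out each library in turn gave 0.98 to 1.48.

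Of the 10 members, 0 were called in cortex by edgeR, where 0.0202% of 14847 genes were called and 877 had an unadjusted p under 0.05. DESeq2 called 39 genes there, Acan among them. The parvalbumin interneuron list summed to 799 to 895 CPM in bulbectomy cortex and 650 to 808 CPM in sham cortex, and 0 of 11 were called. Pvalb had 93.7, 154 and 209 CPM after bulbectomy, against 130, 183, 154, 123 and 110 CPM after sham operation. The bulbectomy library with the most Acan, number 1, had the least Pvalb.

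Acan lay differently in the other tissues. It had 4.22, 3.55, 4.82 and 3.997 CPM in bulbectomy hippocampus, against 5.31, 3.70, 6.10, 4.16 and 3.88 CPM in sham hippocampus (-0.11 ± 0.27), with overlapping groups. It had 0.789 and 1.26 CPM in bulbectomy cerebellum (11 and 26 reads), against 2.22, 3.13, 2.69, 1.16 and 1.85 CPM in sham cerebellum (-1.10 ± 0.50). Bulbectomy 1 lay below the sham range and bulbectomy 2 within it. The difference between the cortical and the cerebellar difference was 2.30 ± 0.49.

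That difference of differences was not called. Over 16564 genes, the share called was 0% for hippocampus minus cortex, 0% for hippocampus minus cerebellum and 0% for cortex minus cerebellum by edgeR. Unadjusted p-values under 0.05 were found for 466, 511 and 276 genes in that order, and DESeq2 called 3, 2 and 0 genes. No member was among the genes DESeq2 called.

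Bcan, brevican, was the most abundant lectican per exon base in all 6 groups. It had 683, 719, 467 and 658 CPM in bulbectomy hippocampus, against 490, 525, 940, 370 and 684 CPM in sham hippocampus. The sham libraries enclosed the bulbectomy values (0.10 ± 0.24). The log2 differences were -0.08 ± 0.23 in cortex and -0.07 ± 0.34 in cerebellum.

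Ncan, neurocan, lay higher in bulbectomy hippocampus, where it had 114, 197, 135 and 156 CPM, against 64.6, 90.7, 138, 105 and 94.5 CPM in sham hippocampus. The groups overlapped through sham 3, and the log2 difference was 0.64 ± 0.21. Sham 1 and sham 2, which stood apart in striatal markers, were the lowest, and without them it was 0.46. In cortex Ncan had 163, 219 and 177 CPM after bulbectomy, against 106, 169, 151, 146 and 146 CPM after sham operation (0.36 ± 0.18). In cerebellum it had 14.5 and 12.4 CPM after bulbectomy, against 14.9, 11.99, 17.7, 8.12 and 10.8 CPM after sham operation (0.06 ± 0.34). Astrocytes are a main source of brevican and neurocan, and the 12 astrocyte markers summed to 5260 to 7822 CPM in bulbectomy hippocampus and 3535 to 5854 CPM in sham hippocampus, with 1 called higher. The part of astrocytes in the Ncan difference was not tested.

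Vcan, versican, is made by oligodendrocyte precursors, fibroblasts and some astrocytes. It was low throughout, from 1.12 CPM in cortex bulbectomy 4 (11 reads) to 16.0 CPM in cerebellum sham 1 (209 reads). The log2 differences were -0.34 ± 0.34 in hippocampus, -0.21 ± 0.47 in cortex and -1.12 ± 0.74 in cerebellum. In cerebellum it was -0.44 without sham 1, as for Tnr. The oligodendrocyte precursor list summed to 179 to 200 CPM in bulbectomy cerebellum and 162 to 298 CPM in sham cerebellum, and 0 of 10 were called.

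Hapln4, the link protein that accompanies brevican around inhibitory synapses of the brainstem and cerebellum, lay higher in bulbectomy hippocampus. It had 163, 235, 169 and 222 CPM there, against 101, 78.03, 172, 172 and 141 CPM in sham hippocampus. The groups overlapped, and the log2 difference was 0.60 ± 0.22. Without sham 1 and sham 2, again the lowest, it was 0.33. In cortex it had 140, 309 and 139 CPM after bulbectomy, against 146, 119, 156, 129 and 149 CPM after sham operation (0.47 ± 0.25). Bulbectomy 2 alone lay above the sham range, and without it the difference was -0.02. In cerebellum the difference was 0.15 ± 0.19, with 341 and 325 CPM against 288, 245, 369, 264 and 317 CPM.

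Hapln2 is the link protein of myelinated axons, found at nodes of Ranvier with versican. It had 14.9, 14.8, 20.3 and 22.5 CPM in bulbectomy hippocampus, against 27.1, 23.1, 21.2, 13.9 and 19.5 CPM in sham hippocampus (-0.16 ± 0.23). Without sham 1 and sham 2 the value was 0.05. The differences were -0.09 ± 0.31 in cortex and 0.11 ± 0.22 in cerebellum. The oligodendrocyte list summed to 4713 to 6077 CPM in bulbectomy hippocampus and 3647 to 6551 CPM in sham hippocampus, and 0 of 12 were called.

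Hapln1, the general link protein of cartilage and nets, had 2.89, 2.82, 1.14 and 3.75 CPM in bulbectomy hippocampus, against 2.07, 1.16, 3.11, 4.08 and 3.15 CPM in sham hippocampus. The groups overlapped fully (-0.05 ± 0.41). In cortex it had 5.39, 5.25 and 1.33 CPM after bulbectomy, against 3.5002, 4.22, 3.40, 4.70 and 5.12 CPM after sham operation (-0.07 ± 0.40). In cerebellum it did not pass the filter on low counts, with 1 and 5 reads after bulbectomy against 22, 3, 11, 3 and 9 reads after sham operation. Of the 9 members tested in cerebellum, 0 were called by edgeR, where 0.0131% of 15295 genes were called, 454 had an unadjusted p under 0.05, and DESeq2 called 12 genes.

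**Figure D2:**
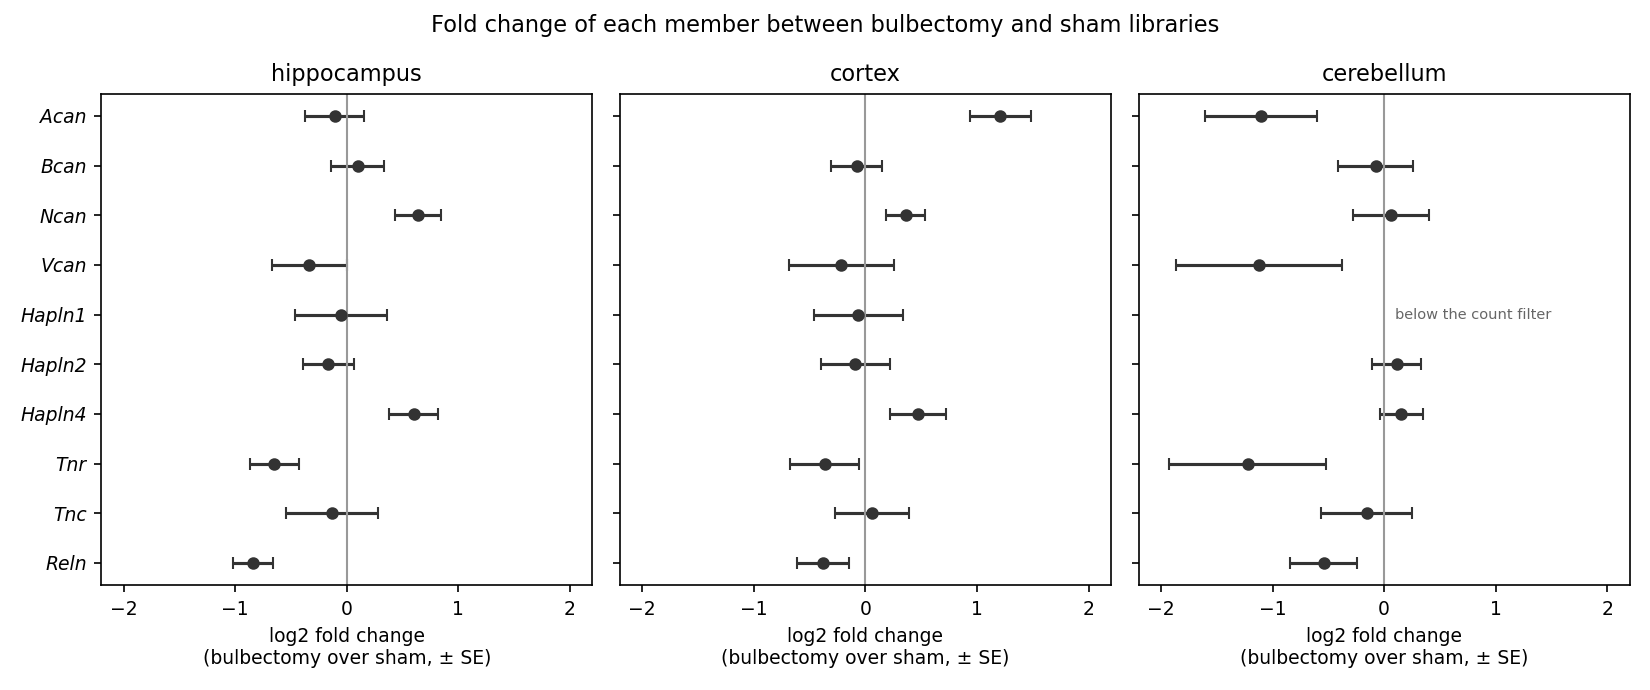
Log2 difference of bulbectomy over sham (points, with SE bars) for each gene in hippocampus, cortex and cerebellum. Reln, Tnr and Vcan lie below 0 in the 3 tissues and Ncan and Hapln4 above 0, while Acan is at 1.21 in cortex and -1.10 in cerebellum.

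Of the 9 members tested in each tissue, Reln, Tnr and Vcan had negative log2 differences in all 3 tissues, and Ncan and Hapln4 positive ones. Hapln1, tested in 2 tissues, was negative in both and had a lower mean in cerebellum as well. Over the members the median log2 difference was -0.12 in hippocampus, -0.07 in cortex and -0.16 in cerebellum, against 0.02, 0.01 and -0.06 over all genes tested. These medians were not tested.

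Reln, Tnr and Vcan are also the 3 members with the longest exons. Reln has 23.7 kb of exon, Vcan 14.5 kb and Tnr 12.9 kb, and the other 7 have 2.37 to 7.77 kb. In hippocampus 1396 tested genes had at least 10 kb of exon, a limit set after the values were seen. Of these 71.1% had a log2 difference below 0, against 48.4% of all genes tested. Their median was -0.25, against 0.02 for all.

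Cerebellum showed the widest such gap, with 81.6% of long genes below 0 against 57.2% of all, and a median of -0.42. In cortex 67.3% of long genes were below 0 against 49.2% of all, with a median of -0.12. The median of the long genes followed single libraries. In hippocampus it lay 0.38 and 0.34 above the mean of the tissue in sham 1 and sham 4, on the log2 scale, and between -0.18 and 0.03 in the other 7 libraries. In cerebellum it lay 0.97 above the mean in sham 1. In cortex it ran from -0.38 in bulbectomy 4 to 0.28 in bulbectomy 1, the libraries with the lowest and the highest Tnr, Vcan and Reln of that group.

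With a smooth trend on exon length and GC content removed from each library, the hippocampal difference of Reln was -0.69 and its call was kept. That of Tnr was -0.37, and that of Vcan 0.0021. In cerebellum Tnr came to -0.74, Vcan to -0.53 and Reln to -0.25. Acan in cortex came to 1.23, close to its value without the correction.

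Tissues were compared next. Among the bulbectomy libraries, cortex had 8 members called against cerebellum, hippocampus 5 against cerebellum, and hippocampus 2 against cortex. Over 15545 genes, 25.8%, 22.4% and 4.73% were called in those contrasts. The 8 and the 5 include Hapln1, which had 1 and 5 reads in cerebellum. The 8, the 5 and the 2 include Acan, whose excess in bulbectomy cortex and lower mean in bulbectomy cerebellum, against sham, were known at the choice. The 5 also include Reln, whose lower level in bulbectomy than in sham hippocampus was known as well. Adjusted p-values here are from edgeR's quasi-likelihood test over all genes, with n = 4 hippocampal, 3 cortical and 2 cerebellar libraries.

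Ncan separated forebrain from cerebellum most sharply among the lecticans. It averaged 150 ± 35.4 CPM in bulbectomy hippocampus, 186 ± 29.3 CPM in bulbectomy cortex and 13.4 ± 1.503 CPM in bulbectomy cerebellum (SD). It was 11.5-fold higher in hippocampus than in cerebellum (log2 3.52 ± 0.26, adjusted p = 4.1e-07, edgeR) and 14.7-fold higher in cortex than in cerebellum (3.87 ± 0.27, adjusted p = 2.3e-07). Hippocampus and cortex were not called apart (-0.35 ± 0.19, adjusted p = 0.32).

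Acan ran from cortex over hippocampus to cerebellum, each step called. The bulbectomy means were 4.15 ± 0.528 CPM in hippocampus, 13.1 ± 4.83 CPM in cortex and 1.03 ± 0.337 CPM in cerebellum. Hippocampus was below cortex (-1.71 ± 0.33) and above cerebellum (2.03 ± 0.44), and cortex was above cerebellum (3.74 ± 0.47). The call of hippocampus against cerebellum was lost without cerebellum bulbectomy 1. In the sham libraries the gap between hippocampus and cortex was -0.32 ± 0.26, and that between cortex and cerebellum was 1.44 ± 0.26. The 3 bulbectomy cortex libraries behind the wider gaps are those that stood above sham cortex. Between hippocampus and cerebellum the sham gap was 1.13 ± 0.27, and Acan had a lower mean in bulbectomy than in sham cerebellum. The cortical excess and the lower cerebellar mean were known when the members were chosen. No p is therefore given for the steps, and nothing is read from their calls.

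Bcan varied least of the called members, at 632 ± 113, 602 ± 173 and 378 ± 73.3 CPM in bulbectomy hippocampus, cortex and cerebellum. Hippocampus and cortex both lay above cerebellum (0.78 ± 0.24, adjusted p = 0.033, and 0.75 ± 0.25, adjusted p = 0.042, edgeR), calls that were lost in several of the alternatives. Vcan showed no call, with adjusted p-values of 0.50 for hippocampus against cortex, 0.97 for hippocampus against cerebellum and 0.51 for cortex against cerebellum.

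Hapln1 was scarce in cerebellum. It averaged 2.65 ± 1.09 CPM in bulbectomy hippocampus, 3.99 ± 2.31 CPM in bulbectomy cortex and 0.157 ± 0.121 CPM in bulbectomy cerebellum, where it had 1 and 5 reads. Hippocampus and cortex were both called above cerebellum. The gene passed the filter on low counts through the forebrain libraries, where it is high, so no fold or p is given and nothing is read from its calls.

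Hapln2 was lowest in cortex. It averaged 18.1 ± 3.89 CPM in bulbectomy hippocampus, 5.81 ± 1.03 CPM in bulbectomy cortex and 24.9 ± 1.71 CPM in bulbectomy cerebellum. Hippocampus was above cortex (1.60 ± 0.25, adjusted p = 0.0028, edgeR) and cortex below cerebellum (-2.01 ± 0.28, adjusted p = 0.00011). Hippocampus and cerebellum were not called apart (-0.42 ± 0.26, adjusted p = 0.28). The oligodendrocyte marker Mog was lowest in cortex as well, with 122 to 141 CPM in bulbectomy hippocampus, 28.9 to 57.8 CPM in bulbectomy cortex and 91.2 and 107 CPM in bulbectomy cerebellum.

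Hapln4 had its highest mean in cerebellum, with 197 ± 36.6 CPM in bulbectomy hippocampus, 196 ± 98.0 CPM in bulbectomy cortex and 333 ± 11.6 CPM in bulbectomy cerebellum. Neither difference from cerebellum was called (-0.72 ± 0.28, adjusted p = 0.081 for hippocampus, and -0.69 ± 0.30, adjusted p = 0.10 for cortex, edgeR). In the sham libraries, which are a description here, the same differences were -1.09 ± 0.19 and -0.996 ± 0.19.

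Tnr and Tnc differed in opposite directions between cortex and cerebellum. Tnr averaged 22.3 ± 4.02 CPM in bulbectomy hippocampus, 36.8 ± 19.0 CPM in bulbectomy cortex and 13.9 ± 0.873 CPM in bulbectomy cerebellum. Cortex was above cerebellum (1.51 ± 0.39, adjusted p = 0.011, edgeR), and hippocampus was called apart from neither (adjusted p = 0.17 for cortex and 0.18 for cerebellum). Tnc averaged 4.65 ± 2.14 CPM in bulbectomy hippocampus, 2.89 ± 0.177 CPM in bulbectomy cortex and 10.2 ± 0.315 CPM in bulbectomy cerebellum. Cortex was below cerebellum (-1.72 ± 0.44, adjusted p = 0.010, edgeR). Hippocampus was called apart neither from cerebellum (-1.09 ± 0.41, adjusted p = 0.071) nor from cortex (0.64 ± 0.39, adjusted p = 0.38).

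Reln was highest in cerebellum. It averaged 34.9 ± 7.75 CPM in bulbectomy hippocampus, 61.9 ± 22.4 CPM in bulbectomy cortex and 159 ± 26.4 CPM in bulbectomy cerebellum. It was 2.40-fold lower in cortex than in cerebellum (-1.26 ± 0.29, adjusted p = 0.0058, edgeR). The log2 difference was -2.15 ± 0.27 for hippocampus against cerebellum, which was called, and -0.89 ± 0.25 for hippocampus against cortex, which was not. In the sham libraries these differences were -1.76 ± 0.18 and -0.35 ± 0.17. The lower Reln of bulbectomy hippocampus was known at the choice, so no p is given for the steps with hippocampus. Nothing is read from whether they were called. The sham means had the same order, 63.7 ± 9.82 CPM in hippocampus, 80.2 ± 10.4 CPM in cortex and 226 ± 59.0 CPM in cerebellum.

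The calls that rest on the 2 cerebellar bulbectomy libraries moved with them. Without cerebellum bulbectomy 1, 3 members were called between hippocampus and cerebellum, Ncan, Hapln1 and Reln. Without cerebellum bulbectomy 2, 4 were called between cortex and cerebellum, Acan, Ncan, Hapln1 and Hapln2. Tnr was lost there without either cerebellar library, and Tnc and Reln without bulbectomy 2.

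In the sham libraries the corresponding counts were 1 member for hippocampus against cortex (Hapln2), 6 for hippocampus against cerebellum (Acan, Ncan, Hapln1, Hapln4, Tnc and Reln) and 8 for cortex against cerebellum (the members other than Vcan and Tnr). Over 15142 genes, 3.30%, 28.4% and 34.7% were called in those contrasts. The 6 and the 8 include Hapln1, which had 3 to 22 reads in sham cerebellum. Without cerebellum sham 1, Tnr was called in both cerebellar contrasts and Bcan was not called in cortex against cerebellum. Without hippocampus sham 1 and sham 2 the counts were 1, 5 and 7. The members were picked with these contrasts in view, and nothing is read from the counts. Ncan was higher by 3.02 ± 0.22 in sham hippocampus and by 3.59 ± 0.23 in sham cortex than in sham cerebellum, on the log2 scale. Hapln2 was 3.36-fold higher in sham hippocampus than in sham cortex.

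**Figure D3:**
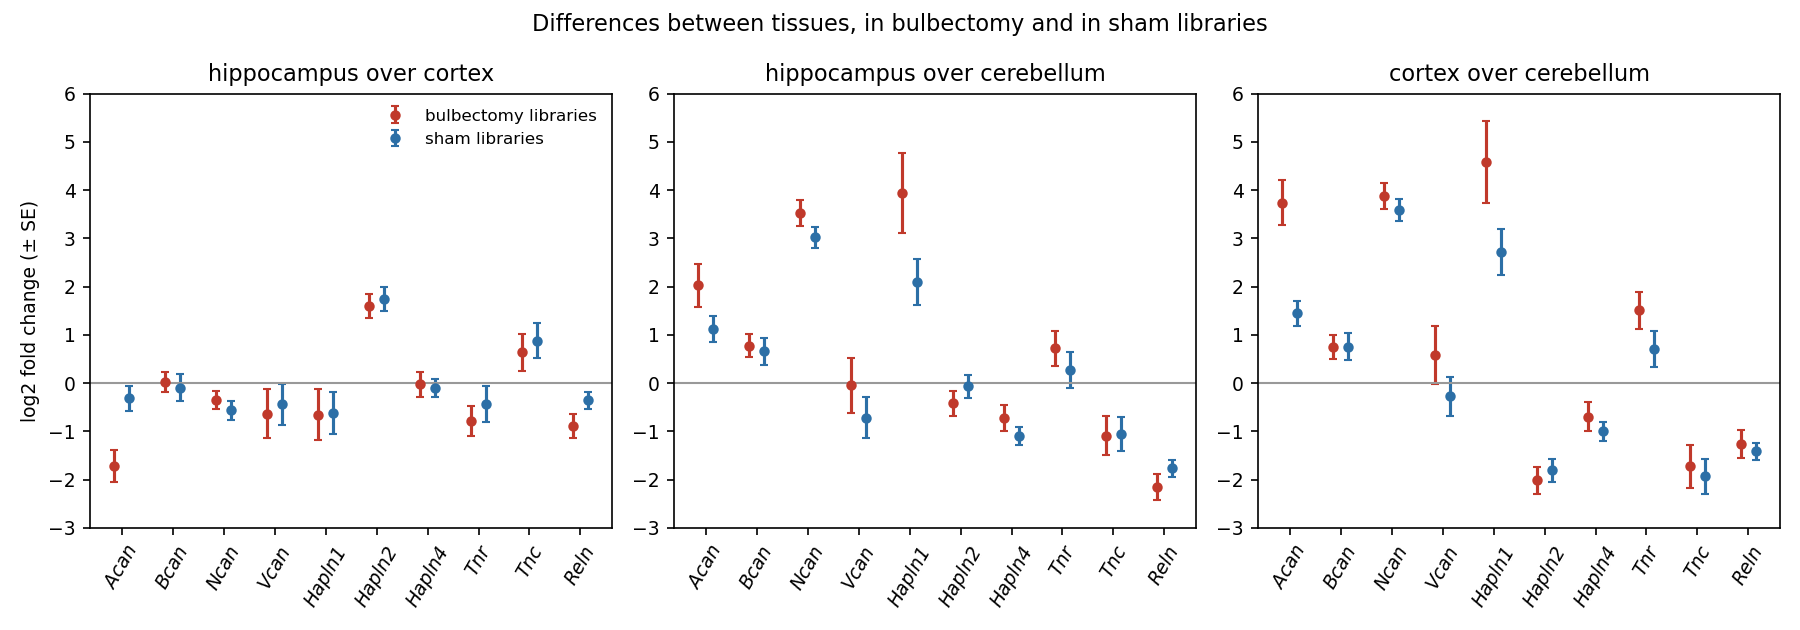
Log2 difference between tissues (points, with SE bars) for each gene, hippocampus over cortex, hippocampus over cerebellum and cortex over cerebellum, in the bulbectomy and in the sham libraries. Ncan lies far above 0 against cerebellum, Reln and Tnc below, and Hapln2 is above 0 for hippocampus over cortex and below 0 for cortex over cerebellum. Hapln1 is drawn too, but it had 1 and 5 reads in bulbectomy cerebellum, and nothing is read from its points against cerebellum.

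Levels of different genes were compared per kb of exon. Among the 4 lecticans, Bcan made up 87.6 ± 2.47% of the summed CPM per kb in bulbectomy hippocampus and 90.6 ± 2.93% in sham hippocampus. It made up 83.6 ± 3.87% in bulbectomy cortex and 87.6 ± 3.33% in sham cortex, and 97.6 ± 0.660% in bulbectomy cerebellum and 97.1 ± 2.09% in sham cerebellum. Ncan supplied most of the rest in the forebrain, 11.9 ± 2.41% and 8.84 ± 2.80% in bulbectomy and sham hippocampus and 15.2 ± 3.75% and 11.8 ± 3.19% in bulbectomy and sham cortex. In cerebellum it supplied 2.01 ± 0.597% and 1.98 ± 1.13%. Acan, the lectican named with nets, reached its highest share in bulbectomy cortex, 1.04 ± 0.4931%, against 0.442 ± 0.0903% in sham cortex.

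Among the 3 link proteins, Hapln4 made up most in each group, from 77.0 ± 8.90% in sham hippocampus to 93.3 ± 2.66% in bulbectomy cortex. Hapln2 made up 13.3 ± 2.99% in bulbectomy hippocampus and 22.0 ± 9.14% in sham hippocampus, and 5.38 ± 2.58% and 6.63 ± 2.14% in bulbectomy and sham cortex. The mean share of Hapln1 was highest in sham cortex, at 1.85%. These shares are of RNA, and those of bulbectomy and sham overlapped for Bcan, Ncan, Hapln2 and Hapln4 in each tissue.

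**Figure D4:**
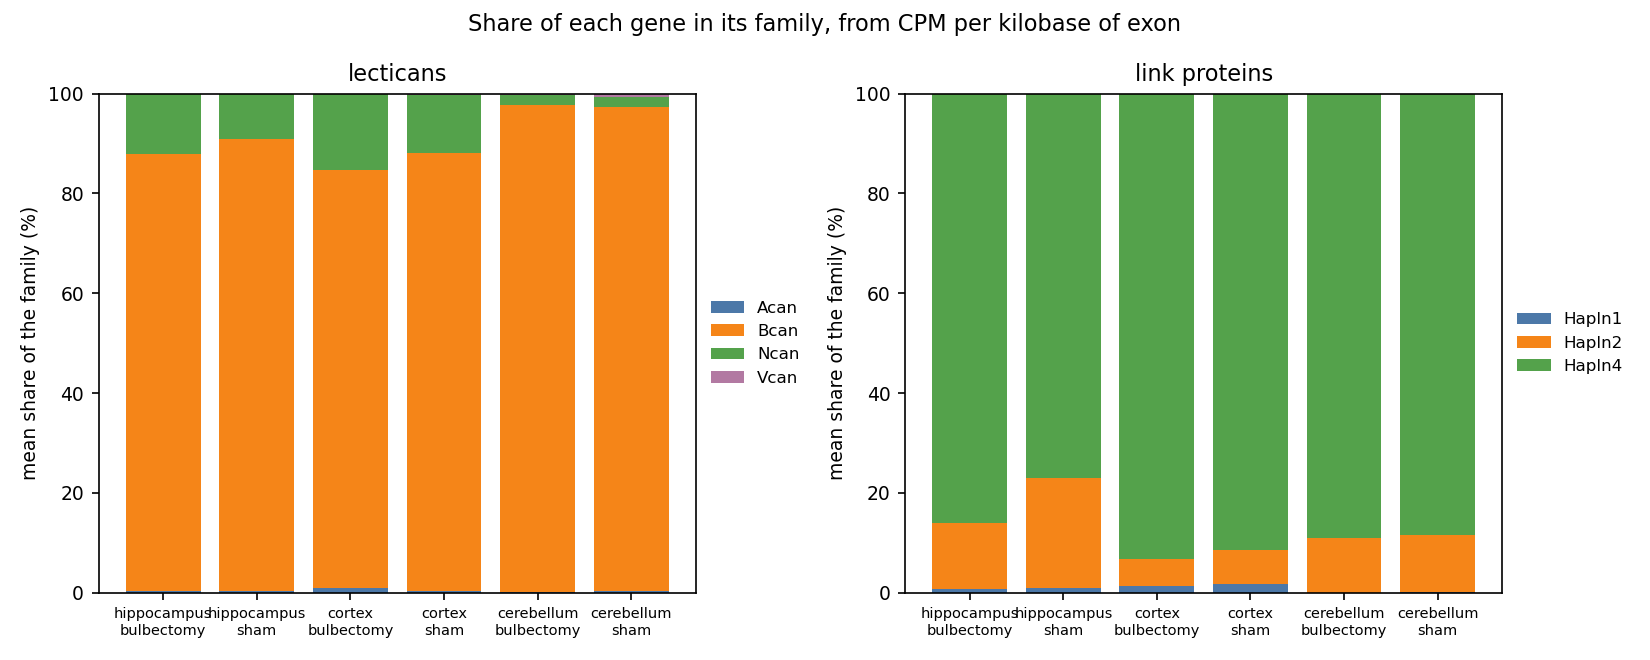
Mean share in percent of the summed CPM per kb of exon, within the 4 lecticans and within the 3 link proteins, for bulbectomy and sham libraries of each tissue. Bcan fills 83.6% to 97.6% of the lectican bars and Hapln4 77.0% to 93.3% of the link protein bars.

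Likeness of pattern was measured between the neighbours. It was the mean absolute difference of log2(CPM + 1), centred on each gene's mean, over the 24 libraries. These libraries differ in tissue and in library size, and such differences enter the distances. The value was 0.96 for Bcan and Hapln2, 1.77 for Ncan and Hapln4 and 0.76 for Vcan and Hapln1. The median distance to all genes compared was 0.56 for Bcan, 0.80 for Hapln2, 1.42 for Ncan, 0.57 for Hapln4, 0.57 for Vcan and 0.82 for Hapln1. The nearest pair of members was Vcan and Tnr at 0.39, and the farthest was Ncan and Reln at 2.10.

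Among 12757 genes expressed in the 3 tissues, the nearest to Hapln2 were S1pr5 (0.25) and Cnp (0.26), which encodes a myelin enzyme. The nearest to Reln were Dner (0.20), which encodes a Notch ligand, Sptb (0.28) and Tmem132a (0.28). Nearest to Tnr were Dmxl2 (0.13), Herc2 (0.15) and the spectrin gene Sptbn1 (0.15), with 13.3, 16.2 and 17.5 kb of exon. Nearest to Acan were Colgalt2 (0.29), Nav1 (0.30) and Cdk5r1 (0.31), the activator of Cdk5 in neurons, and nearest to Ncan were Rimbp2 (0.26), Celf5 (0.27) and A2ml1 (0.28). For Tnc they were Cntn2 (0.29), Slc6a12 (0.30) and Kndc1 (0.31), for Hapln1 Cdk14, Gng2 and Astn1, for Hapln4 Tdp1, Cbfa2t3 and Rdh11, for Bcan Ppp1r16a, Ehmt2 and Fbxo31, and for Vcan Hnrnpr, Zmpste24 and Gopc.

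Other genes of the same pathways were followed in 6 lists. The lists were drawn up with earlier results of these data known, and genes are named by smallest p. Their p-values are therefore not independent of that choice. In hippocampus, bulbectomy against sham, 1.55% of all genes tested were called. There the other matrix proteoglycans and tenascins had 1 gene called higher and 1 lower of 25 tested. Sdc4, the cell-surface heparan sulfate proteoglycan syndecan-4, averaged 103 ± 17.0 CPM after bulbectomy and 35.5 ± 9.12 CPM after sham operation (SD, n = 4 and 5). It rose by 1.55 ± 0.20 on the log2 scale (adjusted p = 0.0047, edgeR), a call kept in all 16 alternatives. Ptprz1, which encodes the receptor phosphatase whose secreted form is phosphacan, averaged 39.1 ± 3.98 CPM against 105 ± 35.9 CPM. Its log2 difference was -1.40 ± 0.23 (adjusted p = 0.011), and the call was lost without bulbectomy 2, without bulbectomy 4 and in 1 fit of all libraries.

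Of 17 matrix receptors and ligands bound in nets, 1 was lower in hippocampus. Ptprf, the receptor phosphatase LAR that binds chondroitin sulfate, averaged 53.5 ± 2.93 CPM after bulbectomy and 83.6 ± 9.49 CPM after sham operation (-0.61 ± 0.14, adjusted p = 0.045, edgeR). The call was lost in 9 of the 16 alternatives. Of 25 proteases and inhibitors, 1 was called lower, the procollagen protease gene Adamts3, at 0.122 to 0.445 CPM after bulbectomy and 1.15 to 5.61 CPM after sham operation. The bulbectomy values lie near the value of 3 reads, and the gene passed the filter through the sham libraries, so no fold or p is given. The call was lost in 5 alternatives. Adamts3 is also known to cleave reelin.

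Of 20 genes of chondroitin sulfate synthesis, 1 was lower, Chpf2, which extends the sugar chain, at 15.2 ± 3.65 CPM against 32.9 ± 8.36 CPM (-1.08 ± 0.23, adjusted p = 0.036, edgeR). That call was lost in 6 alternatives, and 44.1% of the exon bases of Chpf2 overlap Smarcd3 on the opposite strand. Of 10 hyaluronan genes and of 22 genes of reelin receptors and signalling, 0 were called. In cortex and cerebellum 0 genes of the 6 lists were called. The medians of the lists in hippocampus ran from -0.14 for the proteases to 0.12 for the receptors, against 0.02 for all genes.

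The reelin signalling list was also counted between tissues in the bulbectomy libraries. Between cortex and cerebellum 5 of its 22 genes were higher and 2 lower, between hippocampus and cerebellum 4 and 2, and between hippocampus and cortex 2 and 3. Over all genes 25.8%, 22.4% and 4.73% were called in these contrasts, so the first and the second count are near the background. Among the genes of the third count, the 3 of smallest p lost their calls in 10, 8 and 0 of 15 alternatives. Nothing is read from these counts. The Cdk5 activator Cdk5r1 averaged 295 ± 44.9 CPM in cortex and 79.5 ± 7.39 CPM in cerebellum (1.97 ± 0.21, adjusted p = 1.1e-05, edgeR). The integrin gene Itga3 averaged 19.1 ± 3.37 CPM in cortex and 68.9 ± 6.50 CPM in cerebellum (-1.77 ± 0.21, adjusted p = 2.8e-05).

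Of 18 receptors and ligands bound in nets, 10 were higher and 2 lower in cortex than in cerebellum, the contrast in which 25.8% of all genes were called. The Nogo receptor relative Rtn4rl2 had 48.3 to 81.5 CPM in cortex and 0.292 and 0.717 CPM in cerebellum. The neuronal pentraxin Nptx2 averaged 166 ± 38.7 CPM in cortex and 1.77 ± 0.643 CPM in cerebellum (6.65 ± 0.44, adjusted p = 1.2e-07, edgeR). Otx2, a homeoprotein taken up by cells with nets, averaged 0.660 ± 0.296 CPM in cortex and 29.7 ± 9.95 CPM in cerebellum. Rtn4rl2 and Otx2 were called, but each passed the filter through the tissue where it is high and had few reads in the other, so no fold or p is given.

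Between hippocampus and cerebellum 8 receptor genes were higher and 2 lower, and between hippocampus and cortex 2 and 5. Among proteases and inhibitors, 6 of 26 were higher and 4 lower in cortex than in cerebellum, 6 and 3 in hippocampus than in cerebellum, and 1 and 0 in hippocampus than in cortex. Over all genes, 25.8%, 22.4% and 4.73% were called in those contrasts, and nothing is read from these counts. The inhibitor Timp4 averaged 60.1 ± 12.9 CPM in cortex and 504 ± 19.3 CPM in cerebellum (-2.99 ± 0.21, adjusted p = 1.9e-07, edgeR). The protease Prss12, neurotrypsin, which cleaves agrin, had 20.7 to 32.8 CPM in cortex and 0.215 and 0.584 CPM in cerebellum, near the value of 3 reads, and likewise gets no fold or p. Prss12 is among the genes counted as higher in cortex and in hippocampus than in cerebellum. Adamts4, which cleaves aggrecan and brevican, averaged 12.7 ± 1.93 CPM in hippocampus and 5.56 ± 0.388 CPM in cortex (1.15 ± 0.24, adjusted p = 0.015), a call lost in 3 of 15 alternatives.

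Of the chondroitin sulfate genes, 4 of 21 were higher and 2 lower in cortex than in cerebellum, 3 and 2 in hippocampus than in cerebellum, and 1 and 0 in hippocampus than in cortex. The sulfotransferase Ust averaged 11.5 ± 1.51 CPM in cortex and 70.3 ± 9.04 CPM in cerebellum (-2.52 ± 0.22, adjusted p = 1.7e-06, edgeR). The synthase Chsy3 averaged 1.62 ± 0.871 CPM in hippocampus and 5.36 ± 2.03 CPM in cortex, and both cerebellar libraries had 0 reads. The chondroitin sulfate counts against cerebellum include Chsy3. Other matrix proteoglycans and tenascins had 6 of 26 higher and 5 lower in cortex than in cerebellum, 9 and 7 in hippocampus than in cerebellum, and 3 and 1 in hippocampus than in cortex. Over all genes, 25.8%, 22.4% and 4.73% were called in those contrasts, and nothing is read from the counts of either list. Cspg4, the proteoglycan NG2 of oligodendrocyte precursors, averaged 32.04 ± 7.50 CPM in cortex and 8.65 ± 1.80 CPM in cerebellum (1.96 ± 0.29, adjusted p = 0.00017). Of 11 hyaluronan genes, 0 were called in any of the 3 tissue contrasts.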

How the data were processed

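For each library the authors deposited 1 table of raw counts of reads over Ensembl genes. Trimmomatic, STAR, featureCounts and the mm10 build are named in the submitters' processing notes. For the tools' versions, the annotation release and the strand setting, the value is not given in the sources used here. The tables list 55487 genes and 12 totals, and the genes sum to the assigned total in all 24. Reads in no gene (2.62% to 9.22%) or in more than 1 gene (3.92% to 5.08%) stayed out of library sizes and tests.

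After edgeR's filterByExpr and TMM scaling, genes went into the quasi-likelihood test (edgeR 4.0.16, R 4.3.3), two-sided, with Benjamini-Hochberg adjustment over all genes tested and a call at an adjusted p under 0.05. One fit was made per tissue for bulbectomy against sham, 1 for the 15 sham libraries, 1 for the 9 bulbectomy libraries and 1 for all 24 for differences between tissues. Other samples that may belong to these groups were not analysed here.

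The members, the 6 pathway lists, the 16 cell type lists and the tests were chosen with earlier results of these data known. All 10 members are named. Other genes are named as the 3 nearest in pattern to a member, as up to 3 called genes of smallest p per pathway list, or as defining markers, and 1 gene named by this rule is not reported here. Exon lengths, GC content and positions, counted from 1, came from GENCODE M21, which holds 55227 of the identifiers, and promoter sequences from RefSeq (9 of 10 members matched).

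Alternatives were DESeq2 1.42.0, RLE scaling, no filter on low counts and the replicate number as a block. Others were a smooth trend on length and GC content fitted in R and removed in edgeR's fit, 1 fit of all libraries, and each library left out. No 2 libraries of a group agreed within sampling noise (lowest chi-square per degree of freedom 12.9). In no comparison with 3 or more shared numbers were all same-number correlations of deviations above 0.1, so the number was not used as a block in the main fits. Sham hippocampus and sham cerebellum came nearest, at 0.03 to 0.74, and the sham tissue contrasts were fitted as unpaired.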

Additional observations from a re-analysis of the deposited data

Results flagged for a closer look

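In cerebellum sham 1, Tnr had 74.96 CPM, against 24.2 CPM in the next highest sham cerebellum, and Vcan had 15.97 CPM, against 6.31 CPM in the next. Each value lay farther from the other 4 sham libraries than the 95% limit of Dixon's test for a group of 5. Of 40 groups of 4 or 5 libraries tested over the members, these 2 passed that limit, and chance alone passes about 1 in 20. Both values come from the same library, in which genes with at least 10 kb of exon had a median 0.97 above the mean of the tissue on the log2 scale. Without it, the bulbectomy over sham difference in cerebellum was -0.50 for Tnr and -0.44 for Vcan, against -1.22 and -1.12 with it.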

How the results depend on the processing

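In hippocampus, bulbectomy against sham, the 1 member called became 0 with the replicate number as a block, and 0 to 1 with single libraries left out. In cortex DESeq2 called 1 member, Acan. Among bulbectomy libraries, the members called between hippocampus and cortex were 4 without a filter on low counts and 2 to 4 with single libraries left out, against 2. Between hippocampus and cerebellum they were 3 to 7 with single libraries left out, against 5, and between cortex and cerebellum 4 to 9, against 8. Over all genes, hippocampus had 217 called, against 954 by DESeq2, 76 with the block and 456 with the length and GC trend removed, and 30 to 477 with single libraries left out. Cortex had 3, against 39 by DESeq2, 7 with RLE scaling or the trend removed, 24 without the filter, 13 with the block, 5 in 1 fit of all libraries and 1 to 573 with single libraries left out. Cerebellum had 2, against 12 by DESeq2, 0 with the block and 0 to 36 with single libraries left out. Sham hippocampus against sham cortex had 500, against 895 by DESeq2, 765 with the block, 862 with the trend removed, 768 in 1 fit and 284 to 1101 with single libraries left out. Bulbectomy hippocampus against bulbectomy cortex had 735, against 1118 by DESeq2, 1844 without the filter, 466 in 1 fit and 299 to 2617 with single libraries left out. Leaving out single libraries gave 1775 to 4238 for bulbectomy hippocampus against cerebellum (3478) and 1939 to 5091 for bulbectomy cortex against cerebellum (4014). The cause of these differences was not tested.

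In the tissue contrasts of the bulbectomy libraries, signs turned for 3 members, none of them called there. Between hippocampus and cortex, Bcan (0.03) was -0.058 with the trend removed and -0.11 to 0.27 with single libraries left out, and Vcan (-0.63) was 0.031 with the trend removed. Hapln4 (-0.03) was 0.0262 by DESeq2, 0.0262 with RLE scaling, 0.086 with the block, 0.0072 in 1 fit of all libraries and -0.23 to 0.43 with single libraries left out. Between hippocampus and cerebellum, Vcan (-0.04) was 0.295 with the block and -0.22 to 0.17 with single libraries left out. Between cortex and cerebellum, Vcan (0.59) was -0.21 with the trend removed. The calls of Bcan against cerebellum were the least stable, lost with several single libraries left out.

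The labels do not say that a replicate number marks a shared animal, and in no comparison with 3 or more numbers was every same-number correlation of deviations above 0.1. They ran from -0.26 to 0.21 in hippocampus and from -0.21 to 0.46 in cortex, bulbectomy against sham, with 0 of 4 and 1 of 3 numbers matching themselves best. In cerebellum, with 2 numbers, they were 0.54 and 0.69, and both matched themselves best. Sham hippocampus and cerebellum gave 0.03 to 0.74, with 4 of 5. With the block, 7 members were called between cortex and cerebellum after bulbectomy, and 7 and 9 between sham cerebellum and sham hippocampus or cortex, against 6 and 8 without it.

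Cerebellum after bulbectomy had 2 libraries, and hippocampus sham 1 had 3255661 reads, which limits low genes such as Hapln1.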
